A study of Mus musculus with 16 samples.

Results

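The amino acid stress genes that ATF4 controls were followed in C2C12 myotubes, muscle cells differentiated from a mouse cell line, after 24 hr in mouse serum. The 36 genes were a list of known ATF4 program genes, chosen with earlier results of these data known. All 36 symbols were in the FPKM table of 24346 rows. A mean of at least 0.5 FPKM over the 16 libraries was required, which 35 of them met, among 11783 genes of the table that met it and were tested. The gene left out was Cbs, the enzyme that makes cystathionine from homocysteine, with 0 to 0.232 FPKM over the 16 libraries.

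The serum came from mice lacking Bmal1 in the liver (Bmal1hep-/-, called LKO) or from wild-type mice (WT), bled at night (ZT16) or by day (ZT4). This gave 4 groups of 4 libraries: myotubes in LKO ZT16 serum, in LKO ZT4 serum, in WT ZT16 serum and in WT ZT4 serum. The myotubes themselves were of 1 cell line in all groups and carried no deletion, and a group without mouse serum was not analysed here. Age and sex of the serum donors, the Cre line behind the deletion and the serum concentration are not stated here, and the labels do not say whether a library's serum came from 1 mouse or a pool.

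ATF4 is a transcription factor whose mRNA is translated better when the initiation factor eIF2 is phosphorylated, a state set by kinases that sense amino acid shortage, misfolded protein in the endoplasmic reticulum (ER), viral RNA or lack of heme. With partners of the C/EBP family it binds a composite DNA element, the C/EBP-ATF response element, and turns on genes for amino acid synthesis and uptake, glutathione turnover and feedback on translation. In muscle the same program includes the secreted hormones Fgf21 and Gdf15, which are known as signals of muscle and mitochondrial stress. Because ATF4 is controlled largely at translation, its mRNA level is not a readout of its protein, and no protein was measured here.

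The element was looked for in the promoters of the listed genes, since ATF4 binds it with its C/EBP partners. RefSeq promoter sequences (GRCm38.p6) were at hand for 31 of the 36 genes, and those of Eif4ebp1, Cth, Aldh1l2, Slc7a5 and Slc1a5 were not used here. The motif TGATGNAA, searched on both strands in the 250 bases before the start site, was in 8 of the 31 promoters, which is 25.8%. It was in 3.91% of the 27025 genes with a promoter of the same length, and in 2.35% of the 9012 of these that were tested here. The stricter form TGATGCAA was in 6 of the 31 (19.4%), against 0.918% of all genes. The cAMP response element TGACGTCA was in 1 of them, Ppp1r15a, against 1.77% of all genes and 3.26% of the tested ones. The ER stress motif TGACGTGG was in 0, against 0.603% and 0.91% in the same order.

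The 8 genes with TGATGNAA were Nupr1, Fgf21, Vldlr, Chac1, Slc7a11, Asns, Pycr1 and Pck2. Windows of 6 of them are given, 5′ to 3′ on the gene's strand, with the motif or its reverse complement in capitals. Chac1, Slc7a11 and Nupr1 are shown because they were among the genes with wide differences between libraries, Fgf21 because it carries the motif and had another pattern, and Asns and Pck2 because their free base is not C. The windows are chr2:119350999-119351106 (+) for Chac1, chr3:50443614-50443729 (-) for Slc7a11 with 2 matches, chr7:126625523-126625630 (-) for Nupr1, chr7:45615572-45615679 (-) for Fgf21, chr6:7693210-7693282 (-) for Asns and chr14:55540113-55540220 (+) for Pck2.
Chac1: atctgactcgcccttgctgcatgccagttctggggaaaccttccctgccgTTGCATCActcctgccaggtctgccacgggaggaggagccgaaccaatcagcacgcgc
Slc7a11: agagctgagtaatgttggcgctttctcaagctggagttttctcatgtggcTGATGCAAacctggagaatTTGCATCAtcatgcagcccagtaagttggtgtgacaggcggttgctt
Nupr1: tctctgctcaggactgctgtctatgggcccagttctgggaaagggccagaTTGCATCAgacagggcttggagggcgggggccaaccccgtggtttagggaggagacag
Fgf21: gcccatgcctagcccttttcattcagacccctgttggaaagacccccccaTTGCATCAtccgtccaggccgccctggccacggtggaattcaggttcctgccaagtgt
Asns: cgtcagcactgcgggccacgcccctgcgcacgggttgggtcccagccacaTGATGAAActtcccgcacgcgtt
Pck2: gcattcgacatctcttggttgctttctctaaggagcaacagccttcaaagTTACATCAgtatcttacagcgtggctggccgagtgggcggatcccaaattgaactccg
The first base of the motif lay at -193 from the start site in Chac1, at -66 and -47 in Slc7a11, at -110 in Nupr1, at -139 in Fgf21, at -23 in Asns and at -103 in Pck2. Such matches describe the sequence only, and binding was not measured.

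Most of the listed genes had their highest values in the same 2 libraries. LKO ZT4 replicate 1 and WT ZT4 replicate 2, from opposite genotypes, were the 2 libraries with the most FPKM for 31 of the 35 tested genes (88.6%), against 321 of all 11783 tested genes (2.72%). These are called both high libraries here. They were singled out because the listed genes are high in them, so these counts are a description without a test. The genes that did not have them as their highest 2 were Ddit3, Atf5, Cebpb and Fgf21, and for 33 of 35 genes one of them was the highest library. Against the median of the other 14 libraries, the 35 genes had a median of 1.52-fold in LKO ZT4 replicate 1 and 1.51-fold in WT ZT4 replicate 2. At least 1.5-fold was reached by 19 of 35 genes (54.3%) in each of these libraries, against 3.73% of all tested genes in LKO ZT4 replicate 1 and 1.6% in WT ZT4 replicate 2.

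The size differed by gene. Ddit3, Trib3, Gdf15, Vldlr, Slc7a11 and Cth reached at least 2-fold in both high libraries, and among the enzymes of serine synthesis the folds were smaller, with Psat1 at 1.25-fold in LKO ZT4 replicate 1 and 1.18-fold in WT ZT4 replicate 2. The 8 genes with the motif had a median of 1.64-fold and 1.72-fold in these libraries in the same order, and the 22 tested genes with a promoter and no match had 1.51-fold and 1.48-fold. This split depends on the window searched. With 50 bases after the start site included, Trib3, at 4.83-fold and 4.76-fold, and Slc1a4 also had the motif, which made 10 of 31. The libraries were singled out for these genes, and a link of motif and fold was not tested. Over the other 14 libraries alone, the ratio of the highest to the lowest library had a median of 1.53 over the genes, and it ran from 1.16 for Mthfd2 to 3.31 for Fgf21.

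**Figure D1:**
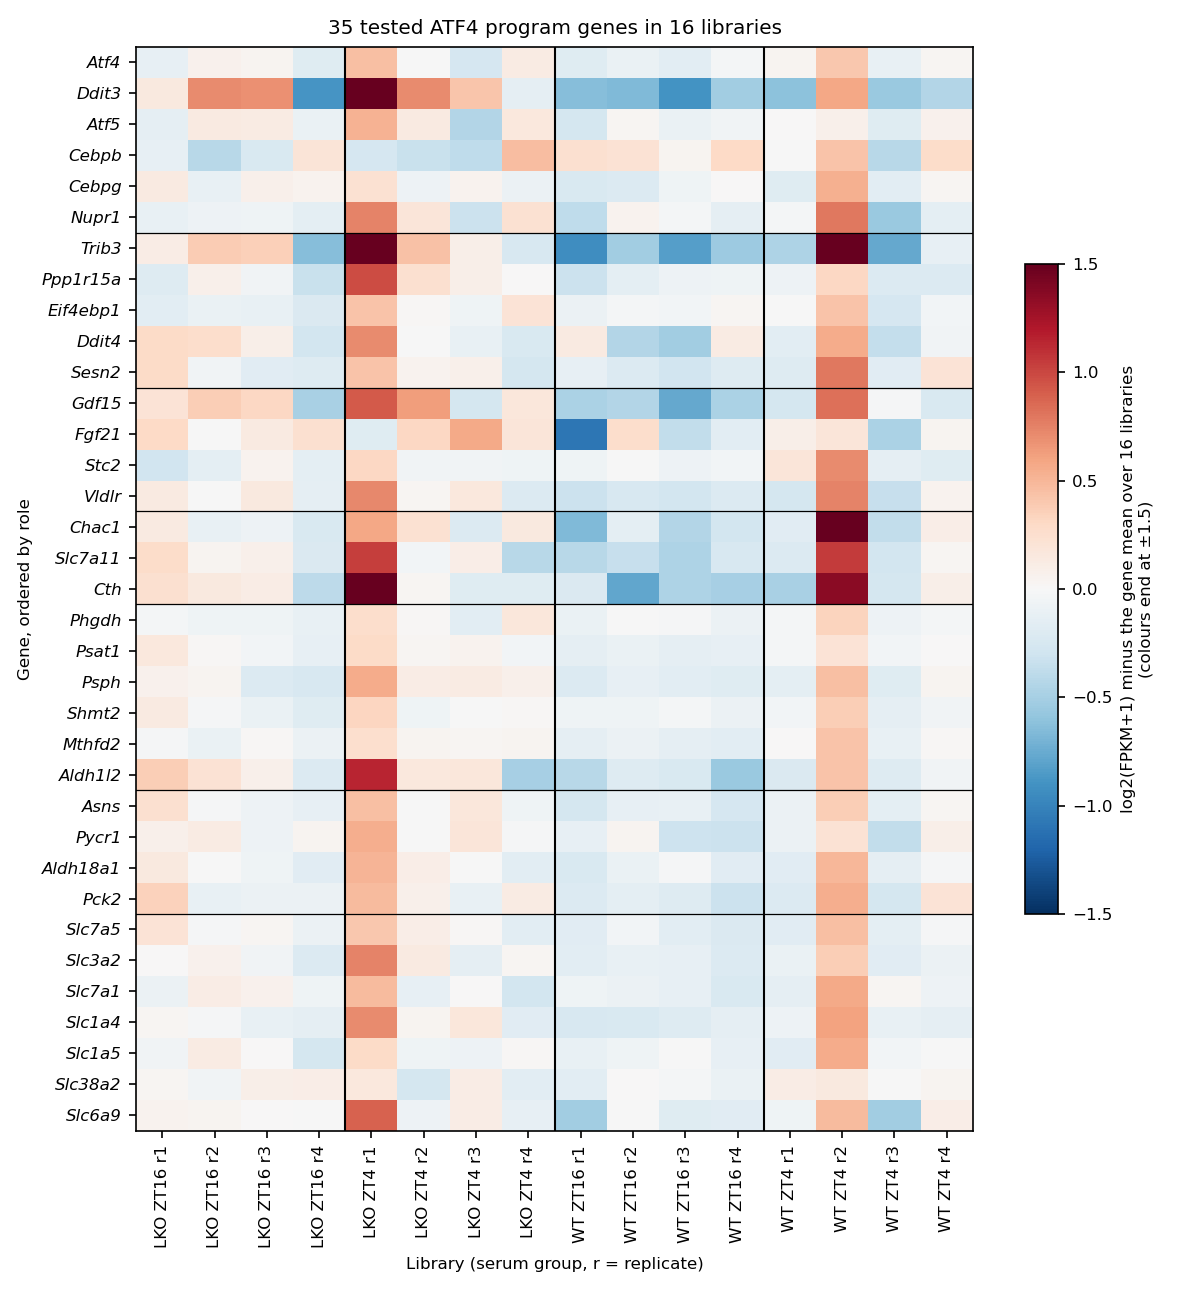
Each row is a tested gene, ordered by role, and each column a library; colour gives log2(FPKM+1) minus the gene's mean over 16 libraries, with colours ending at ±1.5. LKO ZT4 replicate 1 (column LKO ZT4 r1) was above the mean for 33 of 35 genes and WT ZT4 replicate 2 for 35 of 35, while the other 14 libraries were above it for 1 to 24 genes.

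Other features of the libraries were compared with this. Depth was gauged by what 1 read adds to low FPKM values and set at 100% in WT ZT4 replicate 2, the deepest library by this gauge. It was roughly estimated at 65.4 to 97.7% in the others, with 74.2% in LKO ZT4 replicate 1. In the other 15 libraries 8.76 to 23.01% of the low genes lay within 0.05 (log2) of the step used. The 18 myotube markers tested, such as Myh3, Ckm and Acta1, summed to 5818 to 8683 FPKM over the 16 libraries, and their mean deviation was -0.11 in each of both high libraries, within the -0.18 to 0.22 of the other 14. The 10 proliferation markers summed to 592.9 to 694.8 FPKM over the 16 libraries. They deviated by 0.00 in LKO ZT4 replicate 1, within the -0.12 to 0.14 of the other 14. In WT ZT4 replicate 2 they deviated by -0.14, the lowest of all libraries. The difference between short and long transcripts was -0.04 and -0.01 in the same order, within the -0.11 to 0.21 of the others. Hepatocyte markers summed to at most 0.170 FPKM, with 5 of 10 at 0 in every library, and endothelial and fat cell markers to at most 0.255 FPKM. Blood and immune cell markers, of which 6 of 15 were at 0 in every library, summed to 1.90 to 3.97 FPKM in LKO ZT16, 2.72 to 4.19 in LKO ZT4, 4.10 to 7.87 in WT ZT16 and 1.35 to 6.20 in WT ZT4. Arntl, the table's symbol for Bmal1, had 4.25 to 6.29 FPKM in LKO ZT16, 4.82 to 7.51 in LKO ZT4, 4.87 to 5.72 in WT ZT16 and 4.64 to 7.88 in WT ZT4, and since the deletion was in the serum donors it does not check the labels. In bulk RNA, fewer cells with a transcript and less of it per cell cannot be told apart.

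Among the transcription factors, Atf4 lies at chr15:80255184-80257541 (+ strand, GRCm38). Atf4 had 346, 395, 388 and 332 FPKM in LKO ZT16, 515, 377, 318 and 412 in LKO ZT4, 334, 351, 338 and 370.3 in WT ZT16 and 390.2, 501, 349 and 385 in WT ZT4 (replicates 1 to 4 in order, here and for all genes). The highest library was in LKO ZT4 and the next in WT ZT4, and all 4 groups overlapped. Group means were 365 ± 30.8 FPKM in LKO ZT16, 406 ± 82.8 in LKO ZT4, 348 ± 16.5 in WT ZT16 and 407 ± 65.6 in WT ZT4 (SD, n = 4 each). The fitted difference on the log2(FPKM+1) scale was -0.13 ± 0.12 (SE, adjusted p = 0.701) for LKO ZT16 minus LKO ZT4 and -0.21 ± 0.12 (SE, adjusted p = 0.999) for WT ZT16 minus WT ZT4.

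Ddit3 encodes CHOP, a factor that ATF4 and the ER stress sensors turn on together. Ddit3 had 30.02, 44.7, 43.9 and 14.2 FPKM in LKO ZT16, 117, 44.7, 36.2 and 24.5 in LKO ZT4, 16.99, 16.7, 14.1 and 18.5 in WT ZT16 and 17.3, 40.8, 18.1 and 19.6 in WT ZT4. A single LKO ZT4 library was far above all others, and 6 of the 7 libraries with at least 30 FPKM were LKO ones in which the mean of the ER folding genes was also above its overall mean. The exception was WT ZT4 replicate 2, with 40.8 FPKM where the other WT libraries had 14.1 to 19.6. LKO ZT16 replicate 1 was a borderline case on both sides, with 30.02 FPKM and an ER mean 0.01 above its overall mean. The fitted difference was 1.02 ± 0.40 (SE, adjusted p = 0.407) for LKO ZT4 minus WT ZT4 and 0.84 ± 0.40 (SE, adjusted p = 0.392) for LKO ZT16 minus WT ZT16.

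Cebpb, a C/EBP factor that also acts in inflammation and fat cell formation, was the transcription factor least like the rest. Cebpb had 139.6, 114, 130.1 and 174 FPKM in LKO ZT16, 127, 120.4, 117 and 211 in LKO ZT4, 179, 177, 156 and 187 in WT ZT16 and 152, 206, 114 and 185 in WT ZT4. Its highest library was LKO ZT4 replicate 4, LKO ZT4 replicate 1 was among its lower ones, and the groups overlapped. Its difference for LKO ZT16 minus WT ZT16 was -0.34 ± 0.19 (SE, adjusted p = 0.463), with 3 other genes of the list below 0 in that comparison.

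The other factors were Atf5, a relative of ATF4, Cebpg, a C/EBP partner of ATF4, and Nupr1, a small chromatin protein induced by stress. Over the other 14 libraries Nupr1 had 63.7 to 109.7 FPKM, and it had 158 FPKM in LKO ZT4 replicate 1 and 162 in WT ZT4 replicate 2. Cebpg had 18.5 and 23.1 FPKM in these libraries in the same order and 13.2 to 17.3 in the rest. Atf5 was highest in LKO ZT4 replicate 1, at 245 FPKM, while WT ZT4 replicate 2, at 180.4 FPKM, lay within the 125 to 191 of the rest.

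Among the feedback genes and growth brakes, Ppp1r15a encodes GADD34, which directs a phosphatase to eIF2 and so restores translation. Ppp1r15a had 11.7, 14.5, 13.1 and 10.6 FPKM in LKO ZT16, 27.8, 16.2, 14.6 and 13.7 in LKO ZT4, 10.7, 12.2, 12.8 and 12.99 in WT ZT16 and 12.8, 17.2, 11.7 and 11.7 in WT ZT4. One LKO ZT4 library stood well above the rest, and LKO ZT16 overlapped LKO ZT4. The difference of LKO ZT16 minus LKO ZT4 was -0.46 ± 0.17 (SE, adjusted p = 0.328), and that of LKO ZT4 minus WT ZT4 was 0.37 ± 0.17 (SE, adjusted p = 0.469).

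Eif4ebp1 encodes 4E-BP1, a repressor of cap-dependent translation. Eif4ebp1 had 186, 195, 192 and 179 FPKM in LKO ZT16, 279, 211, 199 and 240.4 in LKO ZT4, 196, 203, 203 and 211 in WT ZT16 and 207, 279, 174 and 203 in WT ZT4. All 4 LKO ZT16 libraries were below all 4 LKO ZT4 libraries and, by a small margin, below all 4 WT ZT16 libraries, and the 2 WT groups overlapped. The difference of LKO ZT16 minus LKO ZT4 was -0.29 ± 0.12 (SE, adjusted p = 0.345), and without LKO ZT4 replicate 1 and WT ZT4 replicate 2 it was -0.20.

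Trib3, a pseudokinase that binds and restrains ATF4 and CHOP, had the widest gap of this class. It had 69.8 FPKM in LKO ZT4 replicate 1 and 68.8 in WT ZT4 replicate 2, and 9.36 to 25.7 in the other 14 libraries, which is 4.83-fold and 4.76-fold over their median. Sesn2, a leucine sensor that holds back mTORC1, had 16.7 and 21.6 FPKM in the same libraries and 9.75 to 14.98 in the others. Ddit4, another brake on mTORC1, had 48.6 and 43.4 FPKM there and 20.2 to 36.1 elsewhere.

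**Figure D2:**
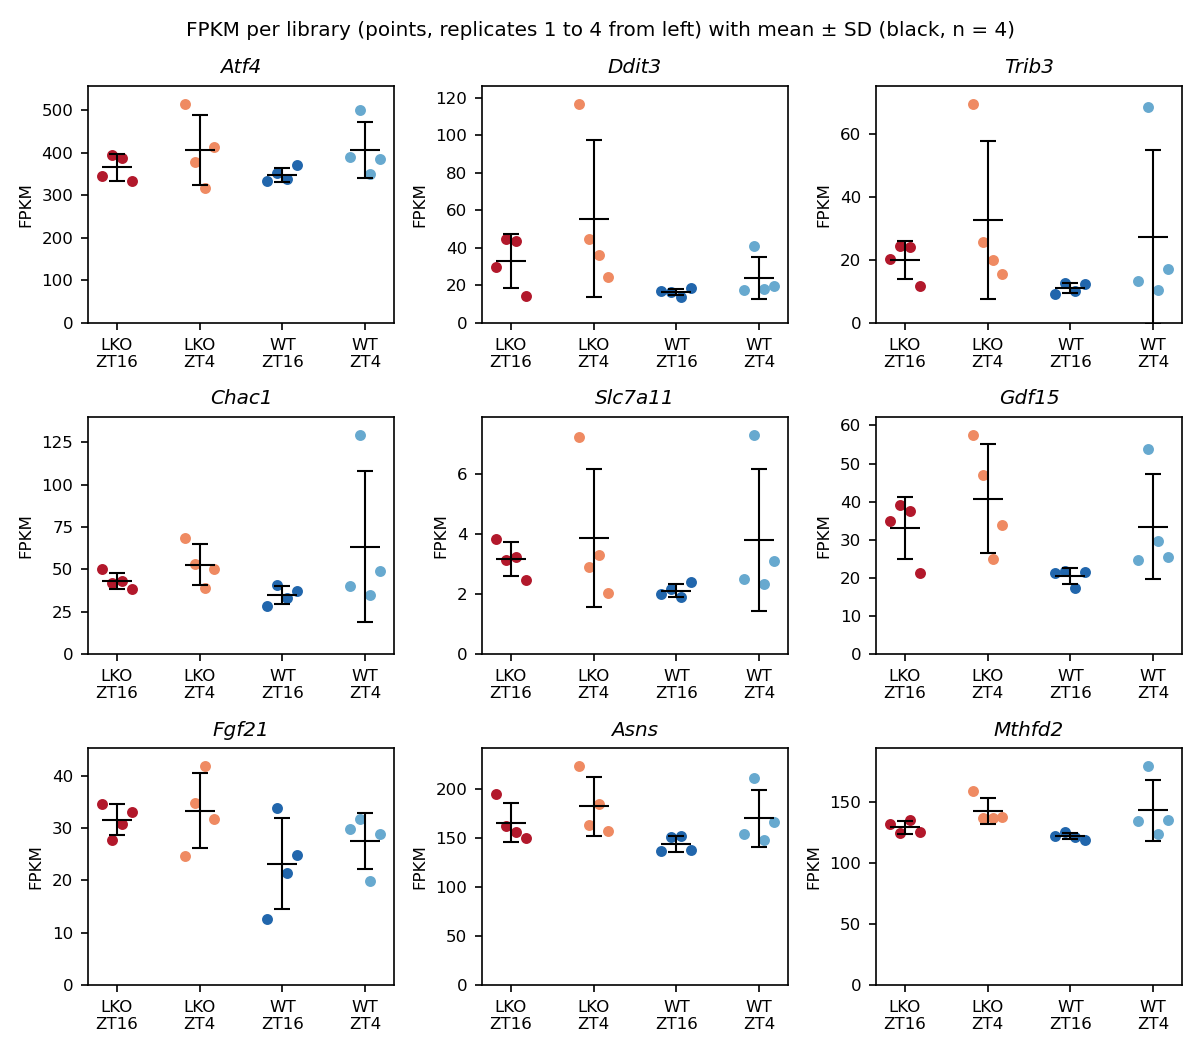
FPKM of 9 genes in the 4 serum groups, with a point per library and the mean ± SD of 4 libraries in black. The top point of WT ZT4 is replicate 2 in all 9 genes. That of LKO ZT4 is replicate 1 in all but Fgf21, whose highest value, 42.0 FPKM, is in LKO ZT4 replicate 3.

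Among the secreted factors, Gdf15 is a hormone that acts on the brainstem to lower food intake. Gdf15 had 34.8, 39.1, 37.4 and 21.2 FPKM in LKO ZT16, 57.6, 46.9, 24.9 and 33.9 in LKO ZT4, 21.3, 21.9, 17.2 and 21.4 in WT ZT16 and 24.8, 53.8, 29.6 and 25.4 in WT ZT4. All WT ZT16 libraries were below all WT ZT4 libraries, and 3 of 4 LKO ZT16 libraries were above all WT ZT16 ones, with LKO ZT16 replicate 4 among the WT values. The difference was 0.64 ± 0.26 (SE, adjusted p = 0.332) for LKO ZT16 minus WT ZT16 and -0.61 ± 0.26 (SE, adjusted p = 0.999) for WT ZT16 minus WT ZT4.

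Fgf21 is a hormone of fasting and mitochondrial stress that muscle can release. Fgf21 had 34.6, 27.8, 30.8 and 33.1 FPKM in LKO ZT16, 24.6, 34.9, 41.95 and 31.8 in LKO ZT4, 12.7, 33.8, 21.4 and 24.9 in WT ZT16 and 29.8, 31.7, 19.8 and 28.8 in WT ZT4. The lowest library was in WT ZT16 and the highest in LKO ZT4, and neither LKO ZT4 replicate 1 nor WT ZT4 replicate 2 stood out. The groups overlapped, since WT ZT16 replicate 2 reached the level of the LKO ZT16 libraries. The difference of LKO ZT16 minus WT ZT16 was 0.50 ± 0.22 (SE, adjusted p = 0.362).

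Vldlr, a receptor for triglyceride-rich lipoproteins, was low, at 0.677 to 1.37 FPKM in the other 14 libraries, and had 2.51 FPKM in LKO ZT4 replicate 1 and 2.55 in WT ZT4 replicate 2. All its LKO ZT16 libraries, at 0.939 to 1.34 FPKM, were above all WT ZT16 libraries, at 0.695 to 0.837. Stc2, a secreted glycoprotein induced by ER and oxidative stress, had 6.88 and 9.37 FPKM in both high libraries and 4.17 to 6.19 elsewhere.

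Among the genes of cysteine and glutathione, Chac1 encodes an enzyme that breaks down glutathione. Chac1 had 49.98, 41.8, 43.02 and 38.5 FPKM in LKO ZT16, 68.3, 53.3, 39.1 and 50.4 in LKO ZT4, 28.3, 40.8, 33.2 and 37.3 in WT ZT16 and 40.3, 129.7, 34.9 and 48.8 in WT ZT4. WT ZT4 replicate 2 had 3.20-fold and LKO ZT4 replicate 1 had 1.69-fold the median of the other 14 libraries, and the groups overlapped. The difference of WT ZT16 minus WT ZT4 was -0.65 ± 0.29 (SE, adjusted p = 0.999).

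Slc7a11 is the cystine importer that supplies glutathione synthesis. Slc7a11 had 3.85, 3.15, 3.24 and 2.46 FPKM in LKO ZT16, 7.23, 2.90, 3.30 and 2.02 in LKO ZT4, 2.0038, 2.16, 1.91 and 2.40 in WT ZT16 and 2.49, 7.32, 2.32 and 3.10 in WT ZT4. It was at nearly the same level in both high libraries, and all LKO ZT16 libraries were above all WT ZT16 ones. The difference was 0.41 ± 0.28 (SE, adjusted p = 0.543) for LKO ZT16 minus WT ZT16 and -0.52 ± 0.28 (SE, adjusted p = 0.999) for WT ZT16 minus WT ZT4. Cth, which makes cysteine from cystathionine, had 26.6 FPKM in LKO ZT4 replicate 1, 24.1 in WT ZT4 replicate 2 and 4.73 to 10.6 in the others.

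Among the serine and folate enzymes, Mthfd2 is a mitochondrial enzyme of one-carbon metabolism. Mthfd2 had 132, 124, 135 and 126 FPKM in LKO ZT16, 159, 137, 137 and 138 in LKO ZT4, 122, 125, 122 and 119 in WT ZT16 and 134, 180.0, 124 and 136 in WT ZT4. All LKO ZT16 libraries were below all LKO ZT4 ones, narrowly, while the 2 WT groups overlapped slightly. The difference was -0.14 ± 0.09 (SE, adjusted p = 0.557) for LKO ZT16 minus LKO ZT4 and -0.21 ± 0.09 (SE, adjusted p = 0.999) for WT ZT16 minus WT ZT4.

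Psph carries out the last step of serine synthesis. Psph had 56.6, 55.7, 46.8 and 45.5 FPKM in LKO ZT16, 79.97, 58.7, 59.1 and 57.3 in LKO ZT4, 46.97, 49.5, 48.6 and 47.5 in WT ZT16 and 48.7, 74.2, 47.5 and 55.7 in WT ZT4. The LKO ZT16 libraries were all below the LKO ZT4 ones, by less than 1 FPKM at the closest, and the 2 WT groups overlapped, as did LKO and WT at each serum time. The difference of LKO ZT16 minus LKO ZT4 was -0.30 ± 0.13 (SE, adjusted p = 0.362).

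Phgdh, Psat1 and Shmt2 were abundant and varied little. Phgdh, the first enzyme of serine synthesis, had 281 to 354 FPKM in the other 14 libraries, Psat1, the next, had 295 to 361, and Shmt2, which passes the serine carbon to folate in mitochondria, had 176 to 219. In both high libraries they had 379 and 395 FPKM (Phgdh), 396 and 373 (Psat1) and 250.3 and 259.9 (Shmt2), with LKO ZT4 replicate 1 given first. Aldh1l2, which oxidises formyl-folate in mitochondria, had 45.9 FPKM in LKO ZT4 replicate 1, 27.7 in WT ZT4 replicate 2 and 13.5 to 26.6 in the rest.

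Among the other biosynthetic enzymes, Asns makes asparagine and is a standard ATF4 target. Asns had 194, 162, 155 and 150.1 FPKM in LKO ZT16, 224, 163, 185 and 157 in LKO ZT4, 136, 150.4, 151 and 138 in WT ZT16 and 154, 211, 147 and 167 in WT ZT4. ZT16 and ZT4 overlapped within each genotype and LKO and WT overlapped at each serum time, and the top library of each ZT4 group lay above the rest. The difference of WT ZT16 minus WT ZT4 was -0.22 ± 0.12 (SE, adjusted p = 0.999), and that of LKO ZT16 minus WT ZT16 was 0.19 ± 0.12 (SE, adjusted p = 0.506).

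Pck2 is the mitochondrial enzyme that makes phosphoenolpyruvate. Pck2 had 59.999, 43.3, 44.1 and 44.1 FPKM in LKO ZT16, 65.5, 49.5, 43.4 and 51.2 in LKO ZT4, 40.5, 42.2, 40.98 and 37.5 in WT ZT16 and 40.5, 69.02, 38.99 and 54.2 in WT ZT4. Every LKO ZT16 library was above every WT ZT16 library, and LKO ZT16 replicate 1 stood apart within its group. The difference of LKO ZT16 minus WT ZT16 was 0.23 ± 0.16 (SE, adjusted p = 0.552). The proline enzymes Aldh18a1 and Pycr1, which carry out the first and last steps from glutamate, had 68.0 and 6.35 FPKM in LKO ZT4 replicate 1 and 67.3 and 4.85 in WT ZT4 replicate 2. In the other 14 libraries Aldh18a1 had 40.5 to 52.6 FPKM and Pycr1 had 2.91 to 4.69.

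Among the amino acid transporters, Slc38a2 imports small neutral amino acids and is induced when they are scarce. Slc38a2 had 116, 109.7, 121 and 122 FPKM in LKO ZT16, 128, 94.6, 123 and 102 in LKO ZT4, 102, 114, 112 and 106 in WT ZT16 and 123, 126, 113 and 117 in WT ZT4. It varied least of the transporters, with 1.12-fold in LKO ZT4 replicate 1 and 1.11-fold in WT ZT4 replicate 2 over the median of the rest, and all groups overlapped. Its interaction, the difference of the time differences between genotypes, was 0.22 ± 0.11 (SE, adjusted p = 0.544), the smallest p of the list for the interaction.

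Slc1a4 exchanges alanine, serine and cysteine. Slc1a4 had 17.8, 17.4, 16.2 and 15.9 FPKM in LKO ZT16, 29.3, 17.998, 19.8 and 15.4 in LKO ZT4, 14.7, 14.8, 15.3 and 15.9 in WT ZT16 and 16.6, 27.1, 16.2 and 15.9 in WT ZT4. Rounded, the lowest LKO ZT16 library and the highest WT ZT16 library have the same value, as do the highest WT ZT16 and the lowest WT ZT4 library, so its lack of overlap in both comparisons rests on the fourth digit. The difference of WT ZT16 minus WT ZT4 was -0.27 ± 0.16 (SE, adjusted p = 0.999).

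Of the other transporters, Slc3a2 and Slc7a5, the 2 chains of the LAT1 importer of large neutral amino acids, had 245 and 167 FPKM in LKO ZT4 replicate 1 and 188 and 173 in WT ZT4 replicate 2. In the other 14 libraries Slc3a2 had 126 to 159.8 FPKM and Slc7a5 had 108 to 145. Slc7a1, which imports arginine and lysine, had 35.5 FPKM in LKO ZT4 replicate 1, 37.9 in WT ZT4 replicate 2 and 20.6 to 27.2 elsewhere. The glutamine carrier Slc1a5 had 20.6 and 25.1 FPKM in both high libraries and 13.8 to 18.3 elsewhere, and the glycine carrier Slc6a9 had 26.8 and 19.98 FPKM and 9.48 to 15.3 elsewhere.

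The effect of serum time in LKO serum was asked by LKO ZT16 against LKO ZT4. None of the 35 genes passed (limma, Benjamini-Hochberg adjusted p under 0.05 over all tested genes), where 0.017% of all tested genes did. The fitted difference was below 0 for 33 of 35 genes, against 48.3% of all tested genes, with a median of -0.13 against 0.01 over all. The list was chosen with earlier results of these data known. This and the later counts set against all genes are therefore a description without a test. At an unadjusted p under 0.05, 3 genes had a difference below 0, Ppp1r15a, Eif4ebp1 and Psph, against 5.76% of all genes. Eif4ebp1, Psph and Mthfd2 had LKO ZT16 libraries all below the LKO ZT4 ones, against 2.52% of all genes. Without LKO ZT4 replicate 1 the median was -0.01, with 23 of 35 genes below 0. All p-values rest on the spread among these libraries alone, which are biological replicates per the labels, and part of that spread may be technical.

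For serum time in WT serum, WT ZT16 against WT ZT4, 0 of the 35 genes passed by limma, and 0% of all tested genes did. The difference was below 0 for 34 of 35 genes, Cebpb being the exception, against 49.7% of all genes, and the median was -0.20 against 0.00 over all. Gdf15, Chac1 and Mthfd2 were below 0 at an unadjusted p under 0.05, against 1.61% of all genes. WT ZT16 libraries lay wholly below WT ZT4 ones for Gdf15, Psat1 and Slc1a4, against 1.8% of all genes. Without WT ZT4 replicate 2 the median was -0.07, with 28 of 35 below 0.

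For genotype by day, LKO ZT4 against WT ZT4, 0 of the 35 genes passed, where 0.00849% of all tested genes did. The difference was above 0 for 26 of 35 genes, against 47.3% of all genes, with a median of 0.10 against -0.01 over all. Ddit3 and Ppp1r15a were above 0 at an unadjusted p under 0.05, against 6.2% of all genes, and 0 of the 35 genes had groups without overlap in either direction, where 2.28% of all genes did above and 1.65% below. The sign of the median depended on single libraries. It was -0.04 with 26 of 35 genes below 0 when LKO ZT4 replicate 1 was left out, 0.25 with 33 above 0 without WT ZT4 replicate 2, and 0.10 with 29 above 0 without both. Without both, which leaves 3 libraries a group, Ddit3, Ppp1r15a, Fgf21, Psph and Mthfd2 lay wholly above in LKO ZT4, against 6.13% of all genes, and 0 of the 35 genes wholly below, against 5.75%. The 2 libraries were left out because the listed genes are high in them, which was no choice by the other genes. These counts and shares are therefore not a like comparison, and nothing is concluded from them. Without WT ZT4 replicate 3 the median was 0.00 (17 above 0), and without WT ZT4 replicate 1 it was 0.02. Under a scaling to equal FPKM sums it was 0.02, with 18 above 0, while the median over all genes was -0.07.

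For genotype by night, LKO ZT16 against WT ZT16, neither high library takes part. Again 0 of the 35 genes passed, where 0.0509% of all tested genes did. The difference was above 0 for 31 of 35 genes, against 51.4% of all genes, with a median of 0.14 against 0.01 over all, and the genes below 0 were Cebpb, Eif4ebp1, Stc2 and Phgdh. At an unadjusted p under 0.05 were Gdf15 and Fgf21, both above 0, against 6.16% of all genes. LKO ZT16 libraries lay wholly above WT ZT16 ones for Vldlr, Slc7a11, Pck2 and Slc1a4, against 5.95% of all genes, and wholly below for Eif4ebp1, against 5.92%. With library weights 0 of the 35 genes passed, where 2.16% of all genes did, and with only these 2 groups fitted 0 passed, where 1.11% did. Both high libraries enter the shared estimate of spread. Leaving them out narrows the spread of the listed genes by the choice itself, for Trib3 with an SE of 0.21 in place of 0.47. The p-values of listed genes from that setting are therefore not given. Only its counts of passing genes are listed among the alternatives.

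Whether the time difference itself differed between genotypes was tested as an interaction, the ZT16 minus ZT4 difference in LKO serum less that in WT serum. It passed for 0 of the 35 genes, against 0.0934% of all tested genes, and 0 of them had an unadjusted p under 0.05, against 10.3%. The fitted value was above 0 for 25 of 35 genes, against 52.3% of all genes, with a median of 0.08 against 0.01 over all. The median was 0.20 without LKO ZT4 replicate 1, -0.04 without WT ZT4 replicate 2 and 0.09 without both. The comparisons share libraries, so their values are not independent of each other.

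**Figure D3:**
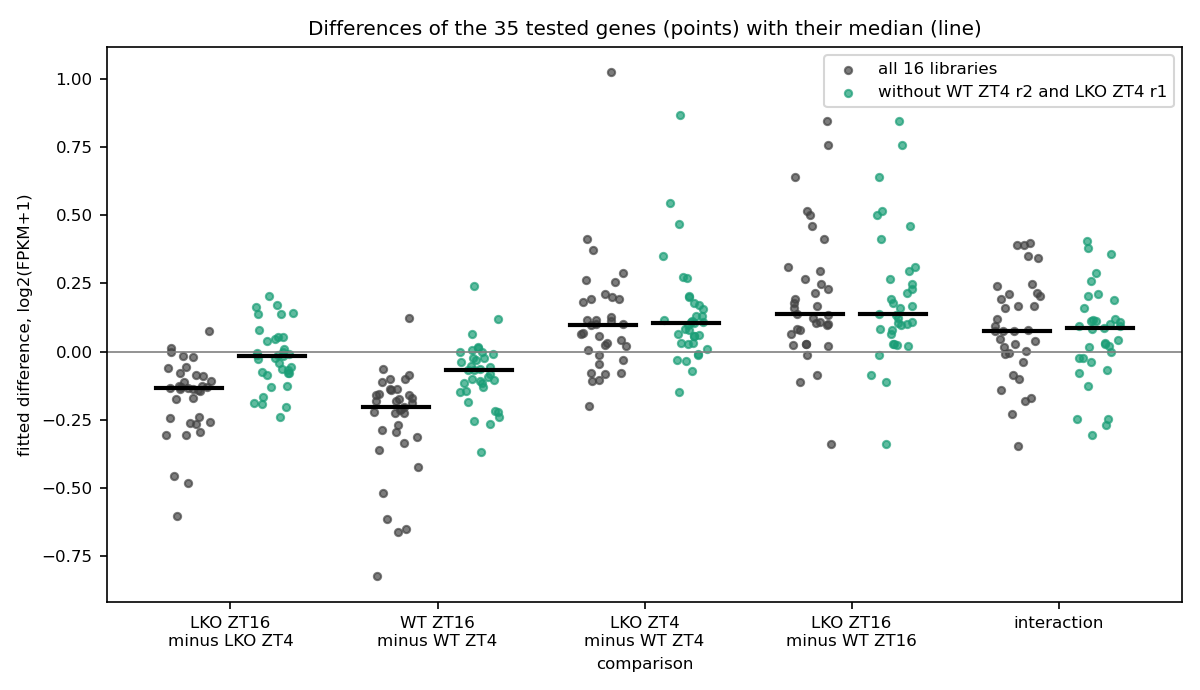
Fitted differences of log2(FPKM+1) for the 35 tested genes (points) and their median (black line) in the 4 comparisons and the interaction, with all 16 libraries (grey) and without WT ZT4 replicate 2 and LKO ZT4 replicate 1 (green). Without them the median moves to -0.01 for LKO ZT16 minus LKO ZT4 and to -0.07 for WT ZT16 minus WT ZT4, and it is 0.14 for LKO ZT16 minus WT ZT16 in both settings.

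Other genes around the pathway were grouped by role, and 0 genes of any of these lists passed in any comparison. These lists were also chosen with earlier results of these data known. Their counts set against all genes are a description without a test. Of a further 28 tested genes of the ATF4 program, 9 had both high libraries as their highest 2, against 2.72% of all tested genes. They were Atf3, Jdp2, Nfil3, Gpt2, Got1, Mthfd1l, Slc38a1, Slc25a33 and Xpot. These libraries were singled out by the listed genes of the same program, so such counts are a description without a test. Atf3, a stress factor induced by ATF4, had 6.09 FPKM in LKO ZT4 replicate 1, 8.97 in WT ZT4 replicate 2 and 1.26 to 2.72 in the others. Gpt2, the mitochondrial alanine transaminase, had 58.6 and 68.0 FPKM there and 30.9 to 53.3 in the others. By p, the leading genes of this list were Sesn3, a relative of Sesn2, at 0.49 ± 0.12 (SE, adjusted p = 0.212) for LKO ZT16 minus LKO ZT4, Shmt1, the cytosolic partner of Shmt2, at -0.19 ± 0.08 (adjusted p = 0.337) for LKO ZT16 minus WT ZT16, and Jdp2, a repressor of the same factor class as Atf3, at -0.27 ± 0.11 (adjusted p = 0.999) for WT ZT16 minus WT ZT4.

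The cytosolic aminoacyl-tRNA synthetases load amino acids on tRNA and are partly ATF4 targets. They had both high libraries as their highest 2 for 11 of 20 genes, against 2.72% of all tested genes. Aars had 130.4 FPKM in LKO ZT4 replicate 1, 115 in WT ZT4 replicate 2 and 90.4 to 103 in the others, and Sars had 141, 134 and 94.0 to 115 in the same order. Their mean deviation was 0.24 and 0.18 in both high libraries and -0.08 to 0.03 in the other 14. Wars, Kars and Sars had the smallest p, with adjusted p of 0.460, 0.409 and 0.475.

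The ER folding and unfolded protein response genes separated the 2 libraries. Their mean deviation was 1.29 in LKO ZT4 replicate 1, the highest of all, and -0.37 in WT ZT4 replicate 2, with -0.52 to 0.67 in the others. Hspa5, the main ER chaperone, named after its values were seen, had 2570 FPKM in LKO ZT4 replicate 1, 417 in WT ZT4 replicate 2 and 367 to 1407 elsewhere. The median difference of the list was 0.74 for LKO ZT16 minus WT ZT16 and 0.72 for LKO ZT4 minus WT ZT4, with 23 of 23 differences above 0 in both, against 51.4% and 47.3% of all tested genes. None passed, and 21 of 23 were above 0 at an unadjusted p under 0.05 at each time, against 6.2% of all tested genes at ZT4 and 6.16% at ZT16. Not every LKO library was high. The mean deviation was -0.20 in LKO ZT4 replicate 4 and -0.33 in LKO ZT16 replicate 4, within the -0.52 to -0.15 of the WT libraries. It was 0.01 in LKO ZT16 replicate 1 and 0.39 to 1.29 in the remaining LKO libraries. The smallest p were those of Sdf2l1, an ER protein folding factor, at 1.41 ± 0.40 (adjusted p = 0.268) and Dnajb9, a co-chaperone, at 0.84 ± 0.24 (adjusted p = 0.268), both for LKO ZT4 minus WT ZT4, and Ero1lb, which forms disulfide bonds, at 0.88 ± 0.25 (adjusted p = 0.226) for LKO ZT16 minus WT ZT16. Whether the ER genes bear on the listed genes was not tested.

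**Figure D4:**
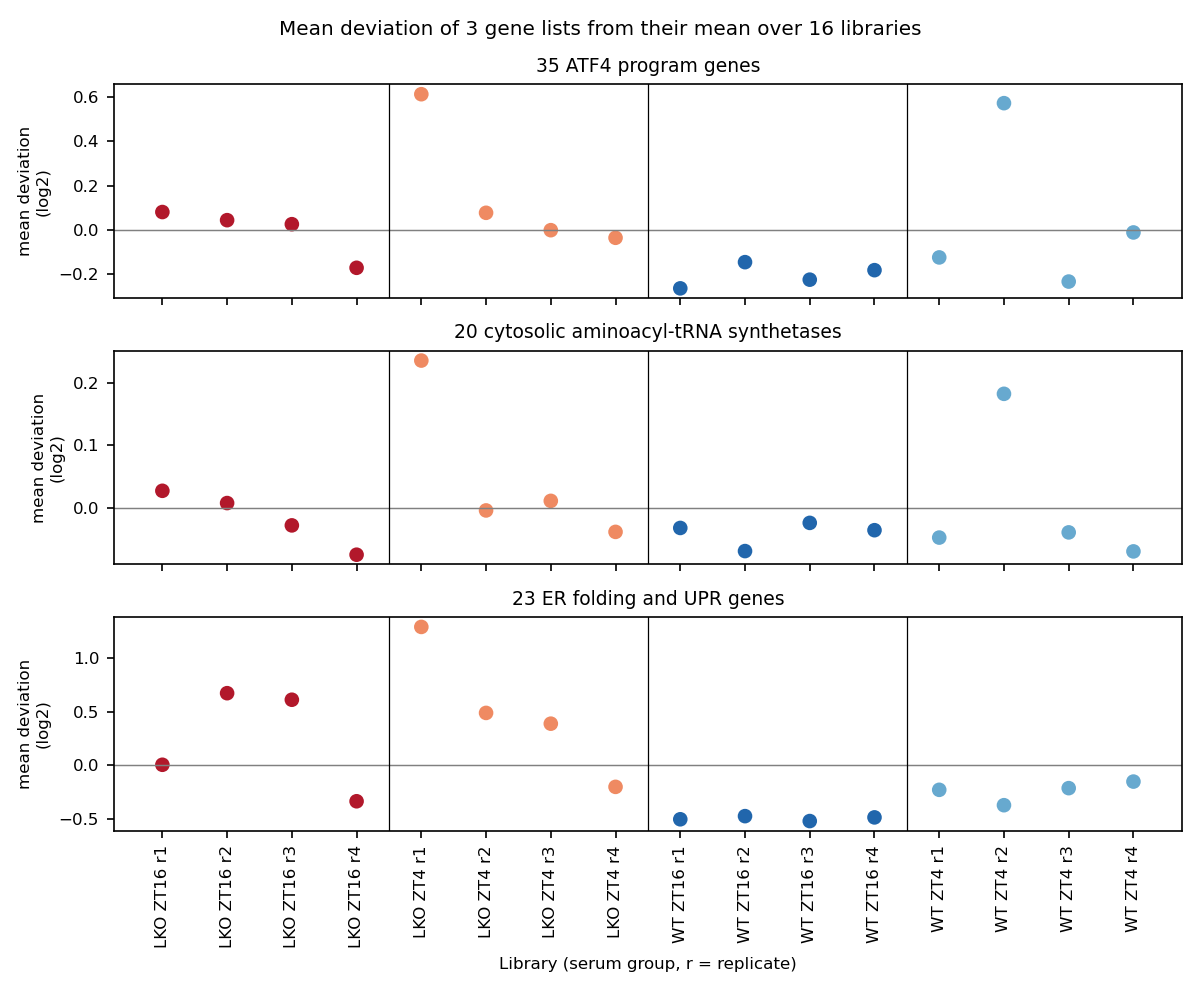
Mean deviation of log2(FPKM+1) from each gene's mean over 16 libraries, per library, for the 35 tested ATF4 program genes (top), 20 cytosolic aminoacyl-tRNA synthetases (middle) and 23 ER folding genes (bottom); each panel has its own scale. WT ZT4 replicate 2 is at 0.57 and 0.18 in the top panels and at -0.37 in the bottom one, whereas LKO ZT4 replicate 1 is the highest library in all 3, at 0.61, 0.24 and 1.29.

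The kinases of eIF2 did not have both high libraries as their highest 2 in any of 4 genes, against 2.72% of all tested genes. Eif2ak3, which encodes the ER sensor PERK, had 7.404 FPKM in LKO ZT4 replicate 1, 3.23 in WT ZT4 replicate 2 and 3.70 to 6.41 in the others. Its difference was 0.32 ± 0.14 (SE, adjusted p = 0.452) for LKO ZT4 minus WT ZT4. Eif2ak2, the sensor of viral RNA, was at 0.26 ± 0.11 (adjusted p = 0.346) for LKO ZT16 minus WT ZT16, and Eif2ak1, the heme sensor, had an interaction of 0.22 ± 0.11 (adjusted p = 0.486).

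Of the 13 genes for eIF2, its exchange factor eIF2B and their phosphatases, Eif2b1, Eif2b2 and Ppp1r15b had the smallest p, with adjusted p of 0.337, 0.356 and 0.510. Of 10 mitochondrial chaperones and proteases these were Clpx, an unfoldase, with an interaction of 0.32 ± 0.08 (adjusted p = 0.145), the co-chaperonin Hspe1, with -0.43 ± 0.14 (adjusted p = 0.274), and the protease Clpp, with -0.25 ± 0.10 (adjusted p = 0.379). Of 14 genes that pass amino acid levels to mTORC1 these were Sar1b, at -0.22 ± 0.05 (adjusted p = 0.197), Sesn3 and Flcn, at -0.20 ± 0.07 (adjusted p = 0.288), all for LKO ZT16 minus LKO ZT4. None of these 14 genes and none of the 18 myotube markers had both high libraries as their highest 2, against 2.72% of all tested genes.

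Genes whose library pattern was most like the mean of the 35 were sought among all other tested genes, by Pearson r over the 16 libraries after each group's mean was removed. The r describes these libraries, which share their scaling, and it is given without a p because 2 libraries carry most of it. The 12 genes were Aars (r = 0.966), Atf3 (0.962), Snai2 (0.958), Zbtb21 (0.938), Sars (0.938), Rab39b (0.920), Gpt2 (0.917), Cdr2l (0.915), Yars (0.906), Nars (0.905), Ciart (0.899) and Tsc22d3 (0.894). For all 12, both high libraries were above the other 14. Snai2, a repressor of epithelial genes and of differentiation, had 27.1 FPKM in LKO ZT4 replicate 1, 31.7 in WT ZT4 replicate 2 and 12.6 to 19.2 in the others. Ciart, a repressor within the circadian clock, had 8.06, 7.77 and 2.32 to 4.77 FPKM in the same order, and Tsc22d3, which glucocorticoids induce, had 32.4, 33.2 and 20.2 to 25.5. Over the 14 libraries left when both high ones were removed, r was 0.866 for Aars and 0.772 for Atf3, and it was 0.297 for Yars and 0.349 for Ciart.

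The listed genes were compared with each other in the same way. The r of a gene with the mean of the others was 0.970 for Trib3, 0.960 for Slc7a11, 0.956 for Vldlr and 0.950 for Psph, and it was 0.542 for Atf5, 0.457 for Slc38a2, 0.162 for Cebpb and 0.0269 for Fgf21. Over the 14 libraries it was 0.851 for Trib3 and 0.797 for Psph, and it was below 0 for Stc2, Slc38a2, Cebpb and Slc7a1. Atf4 itself had 0.833 over 16 libraries and 0.329 over 14.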

How the data were processed

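Poly-A RNA of C2C12 myotubes was sequenced in 16 libraries. The deposited table holds FPKM that the authors made, fragments scaled to transcript length and library size, per the labels and the table's own name; it holds no counts, so the reads behind a value are unknown, the relative depth of libraries was only roughly estimated, and precision was modelled from the replicates. Per the submitters' processing notes, STAR (no version) and FastQC 0.11.8 were used and the builds mm10 and GRCm39 are both named; the program behind the FPKM is not stated in those notes. Summed FPKM ran from 580818 to 690636 per library, with 14234 to 14877 genes above 0. Columns were matched to samples by library name, and 7 of 16 columns carry another replicate number than the sample's title; titles were used. Rows with a date in place of a gene symbol (27) were left out.

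Genes with a mean of at least 0.5 FPKM were tested on log2(FPKM+1), a scale that understates changes of low genes, with limma 3.58.1 in R 4.3.3 (lmFit and eBayes with trend, 4 group means, no replicate block, 12 residual degrees of freedom). A gene passed at a Benjamini-Hochberg adjusted p under 0.05 over all 11783 tested genes. The fit was tested on simulated data, and the share of small differences it found is not given here. A gene that did not pass may therefore still differ between groups. Values of all libraries were given for Atf4 and for the 2 other genes with the smallest p in each of 7 role groups, and in each further list up to 3 genes with the smallest p were named, together with the 12 genes most like the listed ones. The listed genes, role groups and further lists were chosen with earlier results of these data known. Same-numbered libraries were not treated as paired in the main fit. Of 24 pairs across groups, 4 had a correlation of deviations over 0.1 by the numbers of the titles (-0.22 to 0.25). By those of the column names 8 did (-0.09 to 0.33). Figures and promoter searches used Python 3.11.15 and matplotlib 3.10.9. Positions of genes are those of GENCODE on GRCm38, and promoters those of RefSeq on GRCm38.p6. Alternatives were a pseudocount of 0.1, other filters, 2 scalings, library weights, only the groups compared, the replicate number as a block, removal of a trend with transcript length, and leaving out each library or both high libraries.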

Additional observations from a re-analysis of the deposited data

Results flagged for a closer look

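In 140 combinations of gene and serum group, 11 had a library apart from the other 3 by Dixon's criterion, where chance alone flags about 1 in 20, or 7. That rate is for independent, normally distributed values, while the listed genes vary together across libraries. The share of all tested genes marked by this criterion was not computed. Neither an excess nor a lack of one can be read from 11 against 7. In LKO ZT4, replicate 1 stood above the others for Stc2 (6.88 FPKM, against 5.07 to 5.12), Cth (26.6, against 7.62 to 8.96), Psph (80.0, against 57.3 to 59.1) and Mthfd2 (159, against 137 to 138). In WT ZT4, replicate 2 stood above the others for Ddit3 (40.8 FPKM, against 17.3 to 19.6), Phgdh (395, against 298 to 308), Slc3a2 (188, against 129 to 136) and Slc1a4 (27.1, against 15.9 to 16.6). The other 3 were Cebpb, high in LKO ZT4 replicate 4 (211 FPKM, against 117 to 127), Pck2, high in LKO ZT16 replicate 1 (60.0, against 43.3 to 44.1), and Gdf15, low in WT ZT16 replicate 3 (17.2, against 21.3 to 21.9). A library with a near neighbour within its group, such as LKO ZT4 replicate 2 for Gdf15, is not marked by this criterion however high it is. The cause of these values was not tested.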

How the results depend on the processing

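In every alternative run, 0 of the tested listed genes passed in the 4 comparisons and the interaction, which cannot be fitted with only the groups compared. For the run without both high libraries nothing is concluded about the listed genes, since that choice narrows their spread. The medians over the genes kept their sign under the pseudocount of 0.1, both other filters, median-ratio scaling, library weights and removal of the length trend. Leaving out 1 library at a time gave medians of -0.20 to -0.01 for LKO ZT16 minus LKO ZT4, -0.28 to -0.07 for WT ZT16 minus WT ZT4, -0.04 to 0.25 for LKO ZT4 minus WT ZT4, 0.12 to 0.16 for LKO ZT16 minus WT ZT16 and -0.04 to 0.20 for the interaction. Scaling to the same summed FPKM moved the median of all genes to 0.10, -0.07, -0.07, 0.10 and 0.17 in that order, and that of the listed genes to -0.04, -0.29, 0.02, 0.24 and 0.26; the values relative to all genes keep their sign. With the replicate number of the titles as a block, 0 listed genes passed, and the same held for the numbers of the column names, an alternative chosen after seeing the data. By the numbers of the titles, the library of the same number correlated best in 10 of 48 choices. This was not counted for the numbers of the column names. Such correlations cannot exclude that libraries were paired. Over all genes, 2, 0, 1, 6 and 11 passed in that order. These counts were 13, 7, 3, 254 and 127 with library weights, and 0, 18, 1 and 131 in the 4 comparisons with only the groups compared. They were 45, 4, 7, 22 and 94 without both high libraries. They ran from 0 to 5, 0 to 1, 0 to 3, 0 to 9 and 3 to 23 over the 8 other settings with all libraries, and from 0 to 62, 0 to 6, 0 to 16, 0 to 27 and 6 to 109 when 1 library was left out. Without counts the number of reads that limits low genes such as Vldlr cannot be given.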
